A study of Mus musculus with 12 samples.

Results

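The genes described here code for the proteins of the cytosolic ribosome. They were taken from the gene symbols alone, as every symbol formed of Rpl or Rps, a number and the usual endings, with Rplp0, Rplp1, Rplp2 and Rpsa added, and 90 of the 49997 genes in the count tables met that rule. They comprised 43 large subunit genes, 31 small subunit genes and 3 genes of the ribosomal stalk, which together are called the 77 core members, with 8 genes named as paralogs of a core member and 5 retained copies (Rps3a2, Rps3a3, Rps12l1, Rpl6l and Rpl32l). The RefSeq table listed 85 as protein coding, 4 as pseudogenes and 1, Rps4l, as a transcribed pseudogene. Fau and Rack1 also code for ribosomal or ribosome-bound proteins, but their names fall outside the rule, so they are given separately.

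Poly(A) RNA was measured in sorted mouse thymocytes of 2 kinds, DP (CD4 and CD8 double-positive) and CD4, each labelled WT or Satb1 KO, with 3 libraries in each of the 4 groups. SATB1 is a chromatin organiser of T cells. All 4 groups, WT included, are labelled as treated with tamoxifen, which is the agent that induces the knockout. No source used here gives the Cre driver, the age of the mice, the sort gates or how many mice a library holds. The p-values therefore measure the spread between these libraries, which need not be the spread between mice.

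Library totals lay between 22790504 and 62422640 counts. Satb1 stood at 3888, 3832 and 3872 CPM (counts scaled to a common library total) in DP WT and at 2495, 2873 and 2455 in DP KO, and at 3513, 3299 and 3000 in CD4 WT against 1481, 1545 and 1469 in CD4 KO, so it was lower in every KO library and still present in all of them. Summed DP markers (9 genes) were 13192 to 14381 CPM in DP WT and 7927 to 8171 in DP KO. Summed double-negative stage markers (4 genes) were 21.5 to 36.9 CPM in DP WT and 368 to 468 in DP KO. Of the DP KO sums, Il2ra made up 356 to 454, while Kit was at 7.48 to 10.5. Cd44, also on that list, was lower in DP KO (-1.10 on the log2 scale, adjusted p = 0.00414 by edgeR's quasi-likelihood test). Hes1, the remaining gene, did not pass (-0.84, adjusted p = 0.197). In CD4 KO, Zbtb7b, a defining CD4 lineage factor, was at 41.5 CPM or less, against 355 to 413 in CD4 WT. Summed CD4 markers (6 genes) were 1333 to 1438 CPM in CD4 KO and 2428 to 2691 in CD4 WT, beside 1395 to 1505 in DP WT. The DP markers were at 2915 to 3508 in CD4 KO and 1533 to 1981 in CD4 WT, and the double-negative stage markers at 231 to 338 and 93.4 to 106. Cd4 itself counts in both the CD4 and the DP sum. By the same test, 0 CD4 markers were higher and 4 lower in CD4 KO. Of the DP markers 7 were higher and 1 lower, and of the double-negative stage markers 3 and 1. Of all genes, 20.9% were higher and 18.6% lower. The part of these markers in the results below was not tested. DP WT replicates 1 and 2 held 0.845 and 0.273 CPM of Xist, while the other libraries held 190 to 601. Every library held Ddx3y, a gene of the Y chromosome, at 40.3 to 127 CPM. Xist comes from female cells, so the libraries with 190 CPM of Xist or more hold RNA of both sexes. The mix of sexes differed between libraries, and its part in the results below was not tested.

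A ribosome is built from a small subunit, which reads the messenger RNA, and a large subunit, which joins amino acids, and each takes in a single copy of most of its proteins. Genes for these proteins are among the most highly expressed in dividing cells and are usually regulated together. Their transcripts commonly begin with a C followed by a run of C and T, the 5′ terminal oligopyrimidine or TOP motif, through which mTORC1 and the RNA-binding protein LARP1 control their translation, while MYC promotes their transcription.

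Start sites of 7 members are shown because the TOP run is the sequence feature these genes are best known for, and because the 7 differ in how they moved. They were chosen after the values were seen. Each line gives 30 bases before and 30 from the annotated start onward, on the coding strand, from RefSeq in build GRCm38.p6. The longest run of C and T near the start is in capitals. For a gene with several entries, the entry with the longest run is shown.
Rps18 chr17:33955636-33955695, minus strand: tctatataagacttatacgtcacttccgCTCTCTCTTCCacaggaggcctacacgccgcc
Rps6 chr4:86857338-86857397, minus strand: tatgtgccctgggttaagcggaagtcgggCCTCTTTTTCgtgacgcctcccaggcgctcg
Rpl35 chr2:39005102-39005161, minus strand: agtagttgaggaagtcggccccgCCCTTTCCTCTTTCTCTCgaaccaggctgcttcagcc
Rps27 chr3:90213619-90213678, minus strand: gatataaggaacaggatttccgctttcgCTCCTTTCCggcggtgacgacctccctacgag
Rpl12 chr2:32961682-32961741, plus strand: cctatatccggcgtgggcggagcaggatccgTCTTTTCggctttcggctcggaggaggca
Rpl28 chr7:4792935-4792994, plus strand: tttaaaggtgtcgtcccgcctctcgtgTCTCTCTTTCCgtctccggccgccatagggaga
Rpl11 chr4:136053364-136053423, minus strand: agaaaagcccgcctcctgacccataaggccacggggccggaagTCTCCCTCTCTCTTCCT

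Of the 90 members, 65 had a promoter entry of 300 bases, and 57 of these were core members. A gene with several entries was counted as holding a feature if any of them held it. A run of at least 8 C or T, searched from 15 bases before to 30 after the start, was present in 52.6% of the core members with an entry, in 18.8% of 69 mitochondrial ribosomal protein genes and in 19.0% of all 27025 genes with an entry. A C exactly at the start followed by 4 C or T was present in 22.8% of core members and 3.01% of all genes. When the C was allowed from 10 bases before the start on, with the 5 bases ending within 15 after it, the shares were 59.6% and 34.4%. Among motifs searched in the whole 300 bases, CCGGAAG on either strand was found in 42.1% of core members and 9.93% of all genes, GGGCGG in 61.4% and 38.2%, ATGGCGGC in 7.02% and 2.6%, TATAAA in 10.5% and 15.7%, and the palindrome CACGTG in 10.5% and 8.09%. The mitochondrial ribosomal protein genes held CCGGAAG in 37.7%, GGGCGG in 49.3% and ATGGCGGC in 17.4%, and TATAAA and CACGTG in 7.25% each, and their difference from the cytosolic members was not tested. These were 8 features in all, with limits set after the sequences were looked at. Core members with the run had a median log2 fold change of 0.39 in DP KO against DP WT, and those without it 0.39. In CD4 WT against DP WT the medians were 0.35 with the run and 0.46 without it, and in CD4 KO against CD4 WT -0.11 and -0.14.

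Ribosomal protein genes took up a smaller share of all counts in DP WT than in any other group. The share was 4.01, 3.82 and 3.57% in DP WT, 4.78, 5.19 and 5.13% in DP KO, 4.74, 4.67 and 5.29% in CD4 WT, and 4.44, 4.79 and 5.13% in CD4 KO. All 3 DP WT libraries lay below the other 9, and the ranges of the other groups overlapped. The 320 pseudogenes named after a member followed at a near constant 7.42 to 8.41 counts per 100 member counts. Genes with at least 1 count numbered 26256 to 33782 in DP WT and 23400 to 24714 in DP KO, and the part of this difference in the shares was not tested. In bulk RNA, a larger share of the transcripts and more cells of a type rich in them cannot be told apart.

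**Figure D1:**
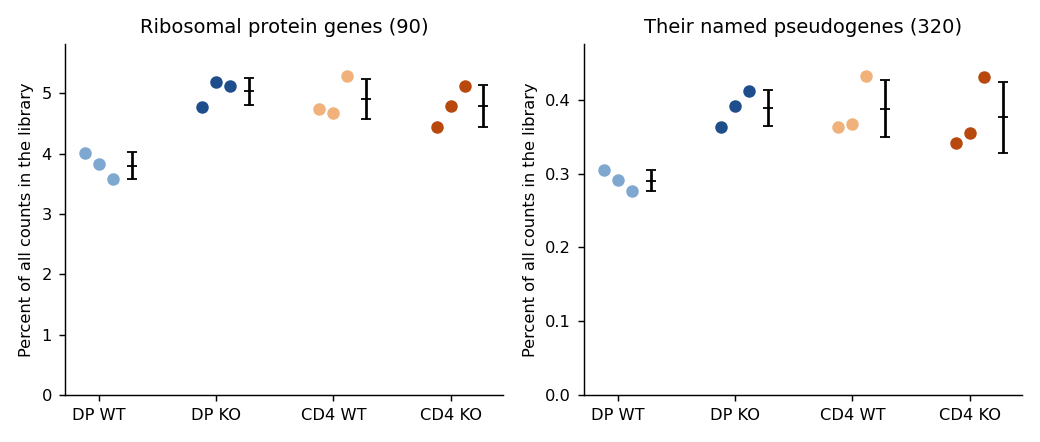
Share of all counts in each library (percent, y axis) that fell on the 90 ribosomal protein genes (left) and on the 320 pseudogenes named after them (right), by group, with 1 point per library and the mean ± SD of 3 beside it. The 3 DP WT libraries, at 3.57 to 4.01% on the left, lie below all the others in both panels.

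In DP thymocytes, ribosomal protein genes rose together in the Satb1 KO. With edgeR's quasi-likelihood test, 74 of the 88 members tested were higher and 0 lower at an adjusted p under 0.05, against 16.7% of all 16776 genes higher and 14.1% lower. At an unadjusted p under 0.05, and with DESeq2 or limma-voom, 0 were lower as well. The median log2 fold change was 0.39, a factor of 1.31, beside 0.01 over all genes tested. The 2 members not tested were Rpl10l, at 0 in every library, and Rpl39l, at most 0.324 CPM. By role, 40 of 43 large subunit genes, 25 of 31 small subunit genes, 3 of 3 stalk genes, 3 of 6 paralogs and 3 of 5 retained copies rose. In 81 members the 3 KO libraries all lay above the 3 WT libraries, which held for 23.7% of all genes, and in 1, Rpl3l, all below (21.7%). Without DP WT replicate 2 the count was 47, with a median of 0.36, and 10.8% of all genes were higher. With DP WT replicate 3, which carries Xist as the KO libraries do, as the lone control it was 35, with a median of 0.46 and 6.06% of all genes higher.

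The members that rose most belong to both subunits. Rps2, a small subunit protein near the path of the incoming messenger, was at 654, 638 and 598 CPM in DP WT and at 904, 978 and 925 in DP KO, with no overlap, and rose by 0.58 ± 0.07 on the log2 scale (SE, adjusted p = 0.000202). Rpl10a, a large subunit protein, was at 452, 422 and 415 CPM in WT and 602, 670 and 663 in KO, and rose by 0.60 ± 0.07 (adjusted p = 0.000229). Rpl36 rose by 0.60 ± 0.09 (adjusted p = 0.000772), Rps18 by 0.58 ± 0.08 (adjusted p = 0.000723) and Rpl17 by 0.54 ± 0.09 (adjusted p = 0.00218). Reads of Rpl10a, Rps10, Rps18, Rps28 and Rps4l are less certain, since the tables place these genes on more than 1 sequence of the assembly. At the other end, Rps27 was at 381, 343 and 290 CPM in WT and 345, 416 and 368 in KO, where the libraries overlapped (0.17 ± 0.11, adjusted p = 0.279). Rps29 (0.18 ± 0.10, adjusted p = 0.19) and Rps9 (0.20 ± 0.08, adjusted p = 0.0811) also missed the threshold. Rpl19 rose by 0.23 ± 0.07 (adjusted p = 0.0433), a call that was lost with the batch number as a block (adjusted p = 0.0708).

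Members known from signalling and from other cell functions rose as well. Rps6, the target of S6 kinase, was at 880, 813 and 783 CPM in DP WT and 1046, 1105 and 1162 in DP KO (0.43 ± 0.07, adjusted p = 0.00179). Rpl5 (0.38 ± 0.08, adjusted p = 0.00572) and Rpl11 (0.27 ± 0.08, adjusted p = 0.0238), which bind 5S ribosomal RNA and can bind MDM2, both rose. The stalk genes, which recruit translation factors to the large subunit, rose by 0.48 ± 0.07 for Rplp0, 0.35 ± 0.08 for Rplp1 and 0.37 ± 0.09 for Rplp2. The 4 X-linked members, Rpl10, Rpl36a, Rpl39 and Rps4x, all rose, by 0.37 to 0.52. Of the ribosomal proteins under other names, Rack1 rose by 0.45 ± 0.07 (adjusted p = 0.00146), while Fau (0.18 ± 0.09, adjusted p = 0.156) did not pass.

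**Figure D2:**
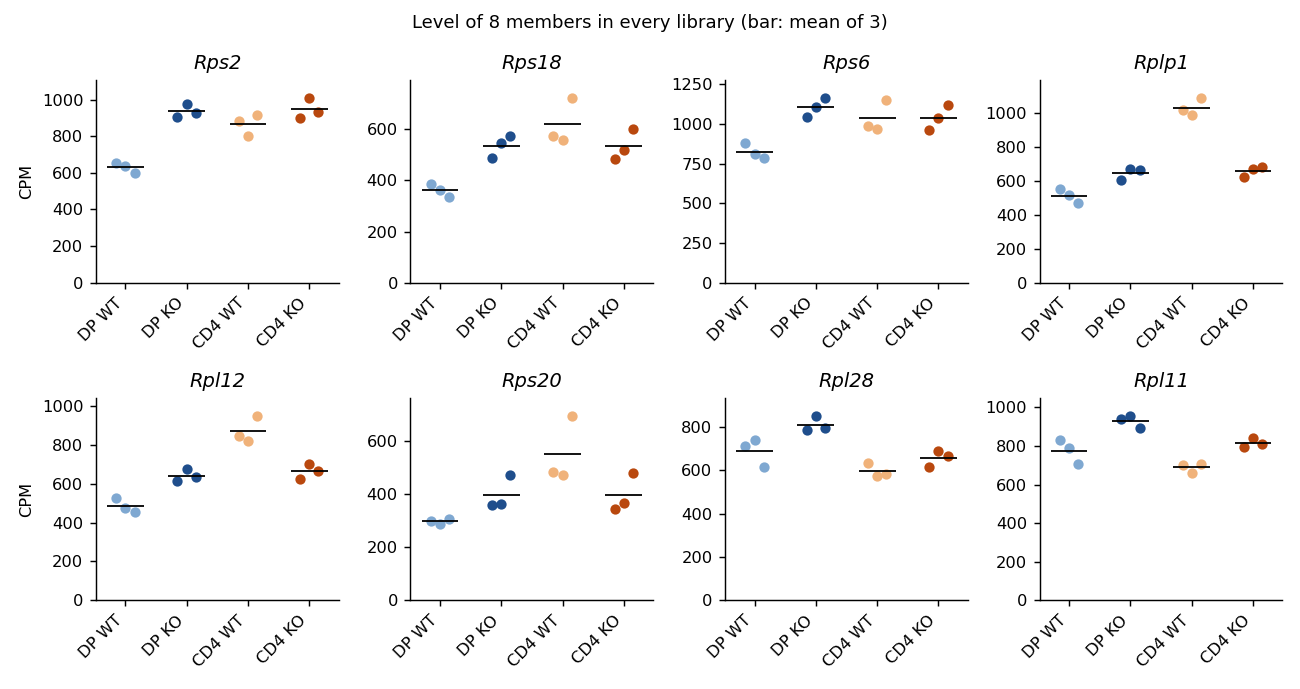
CPM (y axis, from 0) of 8 members in every library, by group, with 1 point per library and a bar at the mean of 3; the genes were chosen after their values were seen. Rps2, Rps18 and Rps6 are low in DP WT alone, Rplp1 and Rpl12 are high in CD4 WT, and Rpl28 and Rpl11 are highest in DP KO.

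In CD4 thymocytes most members did not pass the test in the KO, and those that did were more often lower. Of 87 members tested, 4 were higher and 9 lower, against 20.9% and 18.6% of all 17316 genes, and the median was -0.09 beside 0.00 over all genes. Both shares lay below those of all genes. With the batch number as a block, which the labels pair across groups, 30 were lower and 4 higher, against 21.3% and 23.3% of all genes in that fit. Without CD4 KO replicate 1, 5 were lower with a median of -0.04, and without CD4 KO replicate 3, 19 with a median of -0.15. Of all genes, 14.8% and 16.5% were lower in those fits. Without CD4 WT replicate 3 the members' median was -0.01.

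The largest fall was in Rplp1, a stalk protein. It was at 1021, 988 and 1089 CPM in CD4 WT and 625, 672 and 683 in CD4 KO, well apart, and changed by -0.65 ± 0.07 (adjusted p = 9.76e-05). The other stalk genes, Rplp0 and Rplp2, did not pass. Rps29 (-0.47 ± 0.07, adjusted p = 0.000658), Rpl12 at the base of the stalk (-0.39 ± 0.08, adjusted p = 0.00381) and Rps27 (-0.33 ± 0.07, adjusted p = 0.00569) also fell. Rps20 passed narrowly with overlapping libraries, at 484, 471 and 693 CPM in WT and 342, 365 and 478 in KO (-0.47 ± 0.17, adjusted p = 0.049). The others lower were Rps21, Rpl23, Rps7 and Rps19, named after their values were seen. Rpl11 rose by 0.24 ± 0.07 (adjusted p = 0.0153). The other 3 that rose were paralogs, Rps27l, Rpl7l1 and Rps4l. Blocking brought Rpl3, Rpl5, Rpl36a, Rpl39 and Rps4x below the threshold on the lower side (adjusted p 0.0105 to 0.0252).

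**Figure D3:**
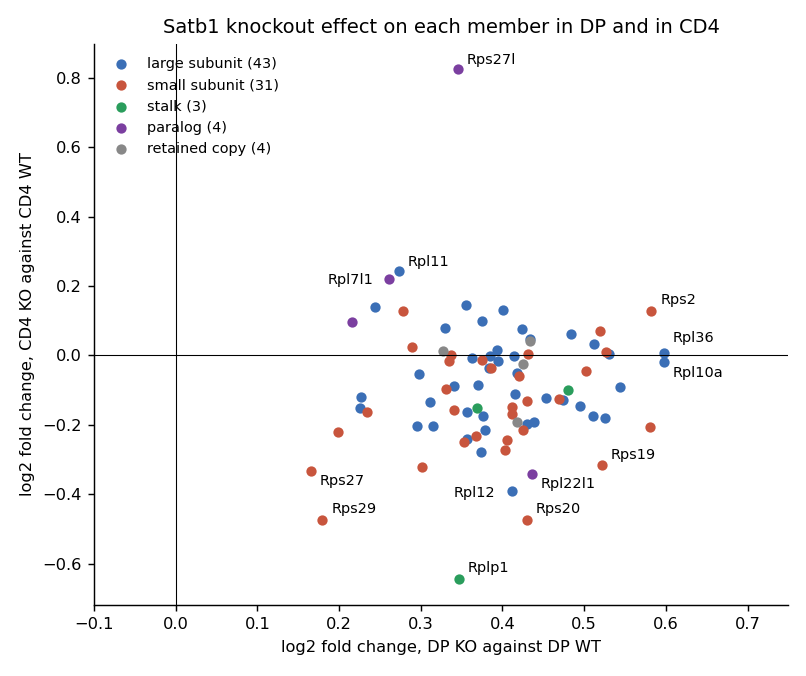
Log2 fold change of the 85 members whose average log2 CPM reached 2 in DP KO against DP WT (x axis) and in CD4 KO against CD4 WT (y axis), coloured by role. All points lie to the right of 0 on the x axis, while on the y axis they spread around 0 from Rplp1 at -0.65 to Rps27l at 0.82.

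The difference between the KO effects was tested as an interaction over all 12 libraries. The effect in CD4 was below that in DP for 63 of 88 members and above it for 1, Rps27l, against 13.4% and 14.4% of all 18431 genes, with a median of -0.49 beside 0.03. Rplp1 differed by -0.98 ± 0.11 (adjusted p = 1.62e-05), Rps20 by -0.89 ± 0.22 (adjusted p = 0.00867) and Rps19 by -0.83 ± 0.14 (adjusted p = 0.000727). For Rpl11 (-0.02 ± 0.10, adjusted p = 0.905) and Rpl7l1 (-0.03 ± 0.10, adjusted p = 0.855), the difference was near 0, and an interval of 2 SE spans about 0.2 on either side.

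Between the stages, WT members were higher in CD4 than in DP. In CD4 WT against DP WT, 61 of 88 members were higher and 1, Rps27l, lower, against 27.9% and 27.1% of all 17369 genes, with a median of 0.39 beside 0.00. The DP and CD4 counts come from separate tables, so table and cell type cannot be told apart here. This comparison shares the DP WT libraries with DP KO against DP WT, so the values are set side by side only. Rplp1 rose by 1.01 ± 0.08 (0.35 ± 0.08 in DP KO against DP WT), Rps20 by 0.88 ± 0.13 (0.43 ± 0.10) and Rpl12 by 0.84 ± 0.08 (0.41 ± 0.08). Rpl28 went the other way, at 715, 743 and 614 CPM in DP WT and 633, 575 and 583 in CD4 WT, with overlap (-0.21 ± 0.08, adjusted p = 0.0505, and 0.0256 with the block). Rpl11 was at -0.17 ± 0.07 (adjusted p = 0.073).

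Few members passed the test between the stages in the KO. In CD4 KO against DP KO, 1 of 87 members was higher (Rpl22l1) and 1 lower (Rpl28), against 13.9% and 7.82% of all 16910 genes, with a median of -0.08 beside 0.00. With the batch block 20 were lower and 1 higher, against 17.6% and 20.4% of all genes in that fit. The median was -0.14 without DP KO replicate 1, -0.17 without CD4 KO replicate 3, and -0.03 without either DP KO replicate 3 or CD4 KO replicate 1. Rpl28 was at 788, 851 and 795 CPM in DP KO and 615, 692 and 665 in CD4 KO, and fell by 0.28 on the log2 scale (SE 0.07, adjusted p = 0.023). Rpl32 (-0.24 ± 0.08, adjusted p = 0.0637) passed with the block (adjusted p = 0.00602). Both single calls were lost when DP KO replicate 1, DP KO replicate 2 or CD4 KO replicate 1 was left out.

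Paralogs are set beside the members they resemble. Rpl22l1, the paralog of Rpl22, was at 43.8, 43.5 and 44.1 CPM in DP WT and 84.7, 86.9 and 115 in CD4 WT, and rose by 1.12 ± 0.11 (adjusted p = 1.3e-05), beside 0.33 ± 0.07 for Rpl22, whose product is needed for alpha-beta T cell development. Its counts per 100 counts of Rpl22 were 21.4 ± 1.21 (SD, n = 3) in DP WT, 20.2 ± 0.766 in DP KO, 36.7 ± 3.50 in CD4 WT and 28.4 ± 0.929 in CD4 KO. Such count ratios, here and for the pairs below, are not corrected for exon length. Per base of exon, Rpl22l1 had 90.8 to 102 per 100 of Rpl22 in DP WT and 153 to 183 in CD4 WT. In CD4 KO against CD4 WT the log2 fold change of Rpl22l1 was -0.34 ± 0.13 (adjusted p = 0.0669, and 0.00114 with the block). Rps27l, a paralog known as a p53 target, was at 18.5, 22.2 and 22.2 CPM in CD4 WT and 36.2, 34.5 and 40.5 in CD4 KO, and rose by 0.82 ± 0.10 (adjusted p = 0.000218) while Rps27 fell. Per 100 counts of Rps27 it had 4.72 ± 0.318 counts in CD4 WT and 9.93 ± 0.131 to 11.3 ± 1.22 in the other groups. Rpl36al had 93.6 ± 2.26 counts per 100 of Rpl36a in DP WT, 76.1 ± 0.828 in DP KO, 58.2 ± 2.15 in CD4 WT and 70.3 ± 0.930 in CD4 KO. Rps4l rose by 1.18 ± 0.29 in CD4 KO (adjusted p = 0.0108) at levels of 0.559 to 1.77 CPM. Differences between these ratios were not tested.

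**Figure D4:**
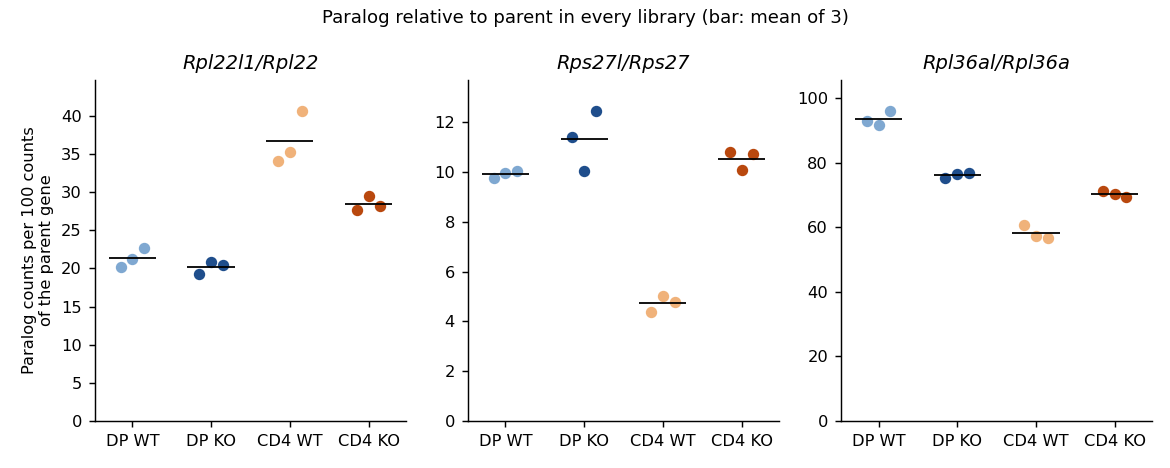
Counts of 3 paralogs per 100 counts of the parent gene (y axis, from 0) in every library, by group, with a bar at the mean of 3. The counts are not corrected for exon length. Rpl22l1 is highest and Rps27l and Rpl36al lowest relative to the parent in CD4 WT.

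Levels per kilobase of exon put the core members in nearly the same order in every group. In DP WT they ran from 47.7 CPM per kilobase for Rpl21 to 1415 for Rps14, with a median of 507. The order within a group rests on the annotated exon lengths. In DP WT, Rps15a ranked 76 per kilobase and 44 by CPM, and the rank correlation between those orders was 0.637. In CD4 WT, Rplp1 led with 2207 CPM per kilobase, beside 1410 in CD4 KO. The rank correlation over the 77 genes was 0.993 between DP WT and DP KO and 0.972 between DP WT and CD4 WT, as a description across genes of libraries that share a length and a mapping. Across the 12 libraries, the correlation of a core member with the mean of the others had a median of 0.91, and was lowest for Rpl28 at 0.07 and Rpl11 at 0.16. The 5 genes outside the list with the most similar profile were Ptpn18 (0.97), Gm9794 (0.97), Gm5451 (0.96), Gm12918 (0.96) and the elongation factor gene Eef1b2 (0.96), among 10769 genes.

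Other lists tied to translation had different counts in DP KO, where 16.7% of all genes tested rose and 14.1% fell. Of 39 ribosome biogenesis genes, 31 rose and 2 fell, with a median of 0.47. Fbl, which methylates ribosomal RNA, rose by 0.87 ± 0.07 (adjusted p = 3.05e-05). Of 19 translation factor and TOP genes, 12 rose and 0 fell (median 0.29), among them Eef1g (0.46 ± 0.07). Of 78 mitochondrial ribosomal protein genes, 21 rose and 2 fell (median 0.16). Of 20 genes of mTORC1 and TOP control, 3 rose and 2 fell (median 0.10), both below the shares of all genes. Larp1 rose by 0.57 ± 0.07 (adjusted p = 0.000217), while Rptor, a subunit of mTORC1, changed by -0.32 ± 0.06 (adjusted p = 0.0041). Of 10 MYC network genes, 3 rose and 2 fell (median 0.04). Myc, at 32.2, 30.4 and 37.5 CPM in DP WT and 138, 151 and 113 in DP KO, rose by 2.02 ± 0.12 (adjusted p = 3.51e-06). Mycn rose by 1.82 ± 0.15 (adjusted p = 2.37e-05). Mxd1, which competes with MYC for MAX, changed by -0.47 ± 0.12 (adjusted p = 0.0137). Mxd3 fell as well (-0.40 ± 0.11, adjusted p = 0.0243), while Mnt rose (0.36 ± 0.11, adjusted p = 0.0327), both named after their values were seen.

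These lists had other counts in the CD4 comparisons. Of all genes tested, 20.9% rose and 18.6% fell in CD4 KO, and 27.9% rose and 27.1% fell in CD4 WT against DP WT. In CD4 KO, 6 translation factor and TOP genes rose and 0 fell (median 0.12). There, 33 mitochondrial ribosomal protein genes rose and 2 fell (median 0.24), and 13 biogenesis genes rose and 1 fell (median 0.09). Of the 10 MYC network genes, 4 rose and 2 fell (median -0.12), and Myc itself rose by 0.65 ± 0.11. Of the 20 genes of mTORC1 and TOP control, 5 rose and 1 fell (median 0.06). Of 14 RNA polymerase I genes, 0 rose and 3 fell (median -0.02). In CD4 WT against DP WT, 5 translation factor and TOP genes rose and 5 fell (median -0.01), near the shares of all genes. In the same comparison, 5 mitochondrial ribosomal protein genes rose and 35 fell (median -0.25), and 26 biogenesis genes rose and 2 fell (median 0.32). The lists' differences from the members were not tested. Core members are short, with a median exon length of 862 bases. Genes outside the list with an average log2 CPM of 5 or more were therefore split at 1000 bases, limits set after values were seen. Those of at most 1000 bases had a median of 0.12 in DP KO, 0.12 in CD4 KO and -0.17 in CD4 WT against DP WT. The longer ones had medians of -0.01, -0.03 and -0.05.

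**Figure D5:**
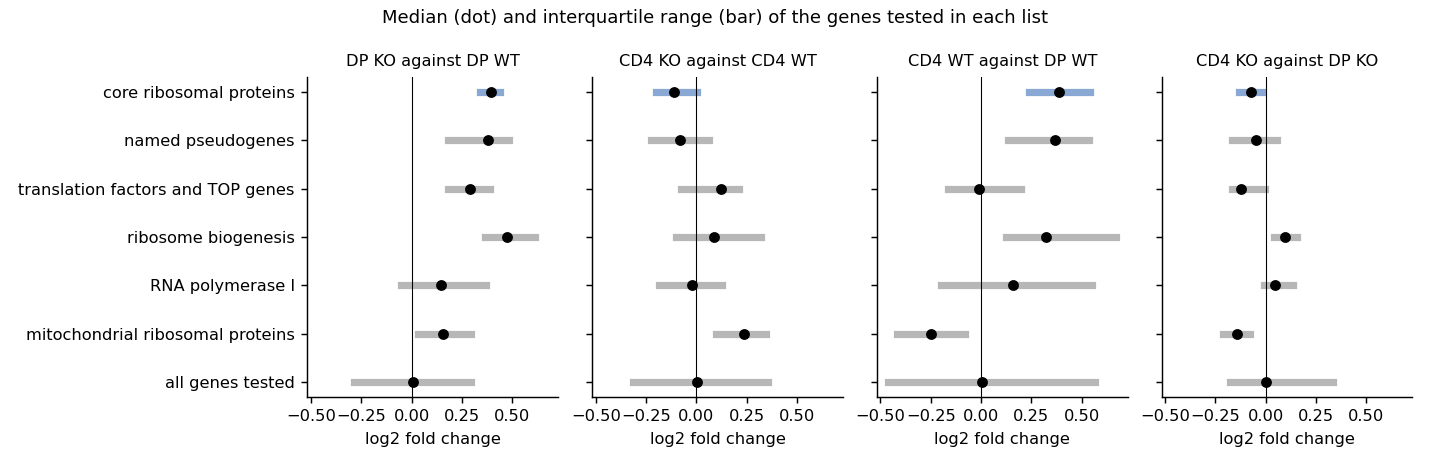
Median (dot) and interquartile range (bar) of the log2 fold changes (x axis) of the genes tested in each list, for 4 comparisons. Core ribosomal proteins lie right of 0 in DP KO and in CD4 WT against DP WT, at medians of 0.39 each, and mitochondrial ribosomal proteins lie left of 0 in the latter, at -0.25.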

How the data were processed

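The authors deposited raw read counts per gene in 1 table for DP and 1 for CD4. Per the submitters' processing notes, R 4.1.5, DESeq2, Subread 1.0.1 and the build mm10 were used, in roles left unstated. For the aligner, strandedness and multi-mapping reads, the answer is not given in the sources used here, so members with near-identical copies are uncertain. Libraries were grouped by title.

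Counts were tested with edgeR 4.0.16 in R 4.3.3 (TMM, default low-count filter, glmQLFit and glmQLFTest with default options, Benjamini-Hochberg over all genes tested, called at adjusted p under 0.05); SE is the absolute log2 fold change over the root of the F statistic. CPM are TMM-scaled. The detection limit was set at 3 counts, 0.0464 to 0.134 CPM, for counting error only. Gene lengths came from the DP table. Figures used matplotlib 3.10.9.

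The members, lists and rules were chosen with earlier results of these data known. Genes named were the extremes of each comparison among members whose average log2 CPM reached 2, paralogs and parents, stalk, X-linked and other well-known members, and the smallest adjusted p of each related list; others are marked where they stand, and some genes the rule gave are not reported here. Counts were also simulated with 100 genes changed by each of 2 sizes and the rest unchanged, far fewer than were called in the data. There, 43 to 63% of changes of 0.5 and 97 to 99% of changes of 1 on the log2 scale were recovered. Of the calls, 7.79 to 14.4% were false, above the nominal rate. The changed genes were not picked to match the members in level, so these shares need not hold for the members. The labels give a batch equal to the replicate number, so the number pairs libraries across groups. Correlations of same-numbered libraries were 0.02, 0.00 and 0.18 in DP, 0.12, 0.16 and 0.34 in CD4, 0.22, 0.15 and 0.26 between WT stages and 0.23, 0.37 and 0.49 between KO stages. No 2 libraries of a group agreed within sampling noise.

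Alternatives were other scalings, DESeq2 1.42.0, limma-voom 3.58.1, other filters, 1 model over all libraries, the batch block, pseudogene counts added to members, leaving out each library, and a fold change limit of 0.25 on the log2 scale. After 8 combinations of edgeR options had been tried on DP KO against DP WT and their counts seen, the default options were kept and the robust fit was added as an alternative.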

Additional observations from a re-analysis of the deposited data

Results flagged for a closer look

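Of 88 members tested, the KO effect was lower in CD4 than in DP for 63 and higher for 1, by edgeR's test of the interaction. Of all 18431 genes, 13.4% were lower and 14.4% higher. Among the genes named for this comparison, the effect in CD4 minus that in DP was -0.98 for Rplp1, -0.89 for Rps20, -0.83 for Rps19 and 0.49 for Rps27l on the log2 scale. The call for Rps27l was lost without DP KO replicate 1, DP KO replicate 2 or several other single libraries.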

How the results depend on the processing

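Among the genes the naming rule gave, no direction that passed the test was turned by any alternative run, and no median of the members changed sign. Other members were not compared gene by gene. In DP KO, 35 members were higher when only DP WT replicate 3 was kept as control, assumed to vary like the KO libraries, and 47 to 72 with 1 library left out. Of all genes, 10.8 to 16.8% were higher in DP KO with 1 library left out. In CD4 KO, members lower numbered 15 with upper quartile factors, 17 without the low-count filter and 30 with the replicate block. The shares of all genes lower there were 19.9, 9.28 and 21.3%. With 1 library left out, 5 to 19 members were lower (14.7 to 17.2% of all genes). Members higher numbered 2 at a minimum log2 fold change of 0.25. In CD4 WT against DP WT, members lower numbered 2 with DESeq2 size factors, the DESeq2 test, a mean count of at least 10, the replicate block or the robust fit, 3 with limma-voom or 1 model over all libraries, and 1 to 4 with 1 library left out (4 without DP WT replicate 3). In all those CD4 WT against DP WT runs, 22.6 to 28.4% of all genes were lower. In CD4 KO against DP KO, members lower numbered 5 with the DESeq2 test or 1 model and 6 without the filter. Of all genes, 11.1, 9.67 and 5.53% were lower there. With the replicate block 20 members were lower (17.6% of all genes). With 1 library left out, 0 to 4 members were lower (3.63 to 8.65% of all genes) and 0 to 1 higher (9.05 to 13.8%). In the interaction, leaving out 1 library gave 0 to 2 members higher, against 11 to 13.5% of all genes. The members' median was then -0.61 to -0.44. The block moved no other count by over 1.5 times. The robust fit, added after the data were seen, gave 76 members higher in DP KO and 8 lower in CD4 KO. The shares of all genes in that fit were 16.8% and 18.8%. Without the filter the median of all genes shifted to -0.58 in DP KO, -0.52 in CD4 WT against DP WT and 0.63 in the interaction, and the members' medians were 0.43, 0.46 and -0.52.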
